A study of Mus musculus with 8 samples.

Results

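The genes described here encode 10 surface receptors of the immunoreceptor type in murine peritoneal mast cells (PMCs): Cd300a, Cd300lb, Cd300ld, Cd300lf, Pirb, Lilrb4a, Milr1, Cd200r3, Cd33 and Fcgr2b. They are 10 of the 55359 genes in the deposited table and were taken from it by gene name. The members were selected on the counts of these libraries, which were known when the list was drawn up, so that the difference between lines and primary cultures is a description for them and no test of it is given. The study compared PMC-306 and PMC-303, lines that arose spontaneously from PMCs through ageing and neglect in culture, with primary WT PMCs. All 8 libraries came from untreated wild-type cells of C57BL/6x129/Sv mice. There was 1 library of each line, and there were 6 of primary cultures, labelled as biological replicates 1 to 3 of female and 1 to 3 of male mice. The lines were kept in medium with less serum and less stem cell factor (SCF) than the primary cultures. Line, medium and time in culture therefore cannot be told apart, and each line stands for 1 culture only.

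Inhibitory receptors of this kind carry tyrosines in an immunoreceptor tyrosine-based inhibitory motif (ITIM) in their cytoplasmic tail. Once phosphorylated, these tyrosines bind the phosphatases SHP-1 (Ptpn6), SHP-2 (Ptpn11) or SHIP-1 (Inpp5d), which oppose the kinase cascade started by the IgE receptor. Activating receptors have short tails. A charged residue in their membrane segment joins them to the adaptors DAP12 (Tyrobp), the FcR gamma chain (Fcer1g) or DAP10 (Hcst). Of these, DAP12 and the FcR gamma chain recruit the kinase Syk. In mast cells the balance of both kinds sets the threshold for degranulation and cytokine release.

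The coding sequence shows which members carry each feature. In the canonical GENCODE M39 transcripts, the stretch after the most hydrophobic window was searched for an isoleucine, valine, leucine or serine that is followed, with 1 residue between, by a tyrosine and then, with 2 residues between, by a leucine, isoleucine or valine. Pirb, which recognises MHC class I molecules, had 3 such ITIM-like stretches. Cd300a and Cd300lf, both receptors for lipids exposed on dying cells, had 2 each, as did Lilrb4a, also known as gp49B. Fcgr2b, the inhibitory receptor for the Fc part of IgG, had 1. Milr1, known as allergin-1, had no match to this pattern, with 6 tyrosines in the stretch searched, and Cd300lb, Cd300ld, Cd200r3 and Cd33 had none either. The pattern is loose, since 38.8% of the 7269 coding genes with a hydrophobic window matched it. The stretches are shown because such motifs give inhibitory members their function, which is background and not a result of these libraries. The tyrosine codon is in capitals, and coordinates are of GRCm39.
Cd300a, chr11:114790672-114790689, plus strand: gtggaaTATagcacattg
Cd300a, chr11:114791973-114791990, plus strand: cttcacTATtcatccgtg
Cd300lf, chr11:115008474-115008491, minus strand: ctctgtTATgcagacctg
Cd300lf, chr11:115007938-115007955, minus strand: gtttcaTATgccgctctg
Pirb, chr7:3716861-3717102, minus strand, across an intron: agcctaTATgcttcagtg
Pirb, chr7:3715785-3715802, minus strand: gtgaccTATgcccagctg
Pirb, chr7:3715695-3715712, minus strand: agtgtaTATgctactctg
Lilrb4a, chr10:51372117-51372134, plus strand: attgtcTACgcccaggta
Lilrb4a, chr10:51372290-51372307, plus strand: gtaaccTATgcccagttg
Fcgr2b, chr1:170788640-170788657, minus strand: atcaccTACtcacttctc

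The members without an ITIM-like stretch, apart from Milr1, had a charged codon in the hydrophobic window. It coded for a lysine in Cd300lb, Cd200r3 and Cd33 and for a glutamate in Cd300ld. Cd300lb and Cd200r3 are known to signal through DAP12, and Cd300ld is known to pair with the FcR gamma chain. Cd33 is a sialic acid-binding lectin whose human counterpart is inhibitory. The window is printed whole, with the charged codon in capitals.
Cd300lb, chr11:114815821-114815877, minus strand: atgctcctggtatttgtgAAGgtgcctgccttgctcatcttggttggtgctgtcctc
Cd300ld, chr11:114875042-114875098, minus strand: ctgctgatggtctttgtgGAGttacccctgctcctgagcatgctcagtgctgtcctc
Cd200r3, chr16:44778114-44778170, plus strand: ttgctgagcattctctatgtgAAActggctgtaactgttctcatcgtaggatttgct
Cd33, chr7:43179344-43179679, minus strand, across an intron: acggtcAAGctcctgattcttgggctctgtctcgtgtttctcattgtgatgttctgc

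The libraries held 15918758 to 24180226 counts each. Values are given as CPM, the reads of a gene per 1e+06 reads of a library after TMM scaling of library sizes (trimmed mean of M-values), and 3 counts, the most that a count of 0 allows, corresponded to 0.123 to 0.187 CPM. All 10 of 10 mast cell markers reached 1 CPM, with a summed level of 48323 to 75994 CPM in primary cultures, 45468 CPM in PMC-303 and, in PMC-306, 41766 CPM. Among 10 macrophage markers the summed level was 7.44 to 68.8 CPM in primary cultures, 7.16 CPM in PMC-303 and, in PMC-306, 441 CPM. Of the latter, 426 CPM were Adgre1, while C1qa, C1qb, Cd14, Mertk and Timd4 were at 3 counts or fewer in every library. B cell, T cell, neutrophil, eosinophil, basophil and dendritic cell markers summed to 21.4 CPM or less in each library. The 4 Y-linked genes examined were present in PMC-303 at 0.977 to 1.55% of their mean in the male cultures. The share that these transcripts had in the levels below was not tested. In bulk RNA, fewer cells with a transcript and less transcript per cell cannot be told apart.

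**Figure D1:**
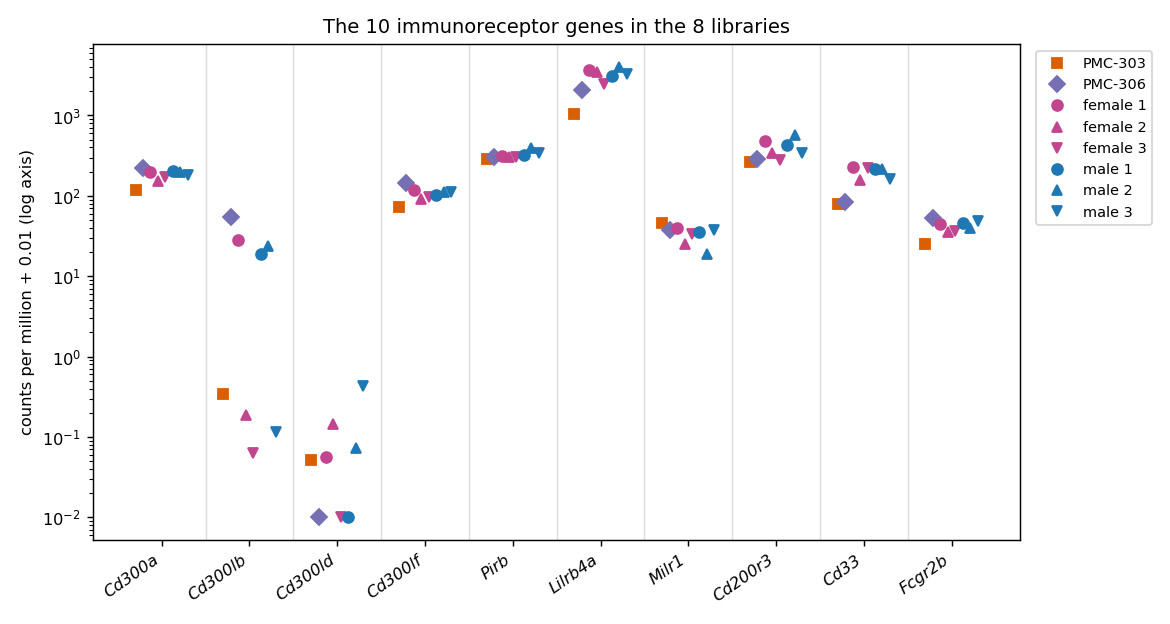
Level of each member in each of the 8 libraries, as CPM + 0.01 on a log axis; each point is 1 library, and points at 0.01 are libraries with no counts. Lilrb4a is highest in all libraries, Cd300lb is either at 19.1 CPM and above or at 0.329 CPM and below, and Cd300ld is at 0.422 CPM or below throughout.

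Per transcript length, the members spanned a wide range in primary cultures. The mean was 1850 ± 335 TPM (a share of transcripts corrected for length, SD, n = 6) for Lilrb4a, 310 ± 95.3 TPM for Cd200r3 and 124 ± 15 TPM for Pirb, and the ranges of these 3 did not overlap. Cd33 with 66.4 ± 14.5 TPM, Cd300a with 50.4 ± 5.44 TPM and Cd300lf with 50 ± 5.36 TPM followed, each overlapping its neighbour. Fcgr2b with 31.2 ± 3.4 TPM and Milr1 with 27.8 ± 6.23 TPM also overlapped one another. Cd300lb with 4.99 ± 5.53 TPM and Cd300ld with 0.0394 ± 0.052 TPM were lowest. Of the activating members, Cd300lb and Cd300ld were thus below every inhibitory member, while the mean of Cd200r3 was above all of them but Lilrb4a. Over all libraries, coding transcripts took 0.746 to 1.07% of the reads of Lilrb4a, 8.99 to 12.8% of those of Pirb and 86.4 to 92.5% of those of Cd200r3. The order is therefore that of gene totals and need not hold for coding transcripts.

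The members varied more between the 6 primary cultures than the median gene. The coefficient of variation over the 6 was 9.88% for Cd300lf, 10.7% for Cd300a and Pirb, 13% for Fcgr2b, 15.9% for Cd33 and 16.6% for Lilrb4a. For Milr1 it was 25% and for Cd200r3 26.7%. Over the 8575 genes with at least 10 CPM on average, the median was 8.83% and the upper quartile 13.6%. Cd300lb, with 111%, and Cd300ld, with 145% at 8.05 counts or fewer in each library, were far above these values and are described separately.

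Among the inhibitory members, Cd300a, Cd300lf and Fcgr2b lay on opposite sides of the primary cultures in the 2 lines. Cd300a measured 198, 153 and 173 CPM in female cultures 1 to 3 and 205, 199 and 182 CPM in male cultures 1 to 3, against 119 CPM in the line PMC-303 and 224 CPM in PMC-306. PMC-303 was thus below and PMC-306 above every primary culture, at 64.6% and 121% of their mean of 185 ± 19.8 CPM (SD, n = 6). Cd300lf showed the same arrangement, with 119, 91.1 and 96.4 CPM in the female and 103, 112 and 110.1 CPM in the male cultures, 72.6 CPM in PMC-303 and, in PMC-306, 143 CPM. Fcgr2b measured 45, 35.2 and 36.9 CPM in the female and 45.4, 40.1 and 49.3 CPM in the male cultures, 25.4 CPM in PMC-303 and, in PMC-306, 52.8 CPM. The level in PMC-306 was 1.88-fold that in PMC-303 for Cd300a, 1.97-fold for Cd300lf and 2.08-fold for Fcgr2b. With 1 library of each line, the difference between the lines has no replicate check. These 3 of 10 members compare with 1.90% of all 14529 genes with enough counts that lay above every primary culture in PMC-306 and below every one in PMC-303, a share from the contrast on which the members were chosen.

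The estimated transcripts of Fcgr2b also differed in the lines. Protein-coding transcripts took 60.8 to 64.9% of its reads in primary cultures, 88.7% in PMC-303 and 74.1% in PMC-306. Transcripts with a retained intron took 26.8 to 30.7% in primary cultures, 10.5% in PMC-303 and 22.5% in PMC-306. Both lines were outside the range of the primary cultures. The lower gene total in PMC-303 therefore need not apply to the coding transcripts of Fcgr2b to the same extent, which was not tested. The coding transcript Fcgr2b-203 took 22.1% in PMC-303, 0% in PMC-306 and 3.35% or less in primary cultures. Transcripts of Cd300a showed no such shift, since 97.5 to 99.2% of its reads were assigned to coding transcripts in all libraries. For Cd300lf, the coding share was 52.1 to 61.4% in primary cultures, 63.2% in PMC-303 and 53.7% in PMC-306.

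**Figure D2:**
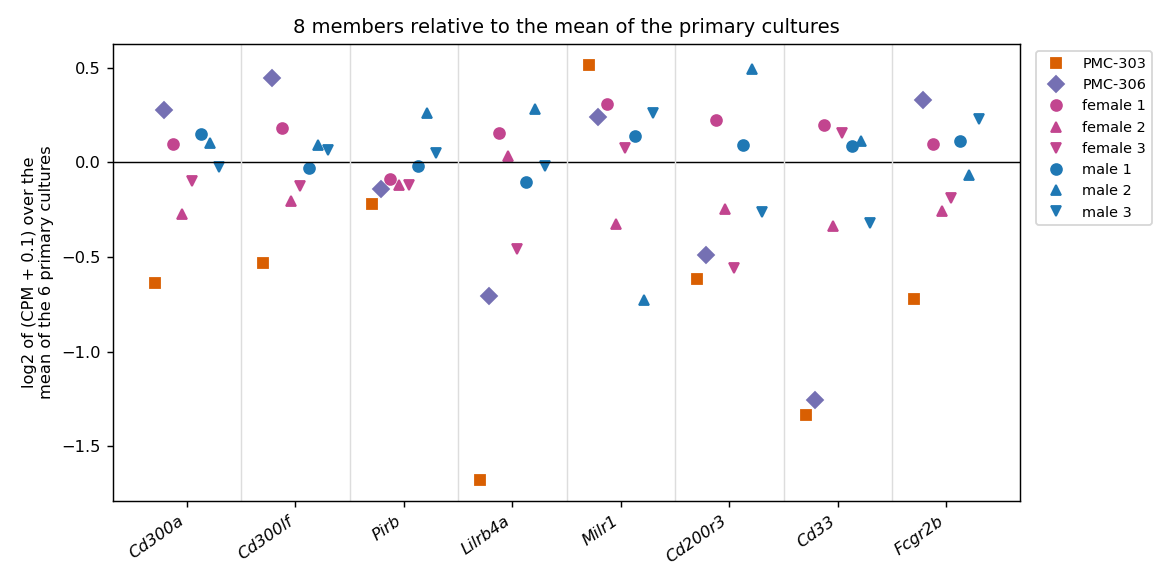
log2 of (CPM + 0.1) in each library over the mean of the 6 primary cultures, for the 8 members with enough counts in every library; each point is 1 library and the line at 0 is the primary mean. Cd300a, Cd300lf and Fcgr2b lie below the primary cultures in PMC-303 and above them in PMC-306, while Lilrb4a and Cd33 lie below them in both lines.

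Lilrb4a, whose product restrains mast cell activation when it binds the integrin alpha-v beta-3, was lower in both lines. It measured 3726, 3431 and 2438 CPM in the female cultures and 3113, 4066 and 3303 CPM in the male cultures, but 1044 CPM in PMC-303 and, in PMC-306, 2052 CPM. The lines were at 31.2% and 61.3% of the primary mean of 3346 ± 557 CPM (SD, n = 6), and neither overlapped with a primary culture. Its neighbour Lilrb4b, named Lilr4b in the deposited table, shares 96% of 907 aligned coding bases with Lilrb4a, so that reads can be divided between the 2 genes. Their sum was 4832 to 7080 CPM in primary cultures, 2234 CPM in PMC-303 and, in PMC-306, 4194 CPM, or 36.5% and 68.5% of the primary mean. Only 0.746 to 1.07% of the reads of Lilrb4a were assigned to transcripts that M39 lists as coding, and 82.9 to 91.2% to transcripts with a retained intron. The libraries were prepared from total RNA, and the assignment among overlapping transcripts is an estimate.

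Pirb differed little between the lines and the primary cultures. It measured 312, 305 and 305 CPM in the female cultures, 327, 397 and 343 CPM in the male cultures, 284 CPM in PMC-303 and, in PMC-306, 300.4 CPM. Both lines were just below the lowest primary culture, at 85.7% and 90.6% of the mean of 331 ± 35.3 CPM. As TPM, PMC-306 was on the other side of the primary mean, with a log2 fold of 0.10 in place of -0.14. Milr1, an inhibitory receptor of mast cells that dampens IgE-dependent anaphylaxis, measured 39.3, 25.3 and 33.4 CPM in the female cultures, 35, 19.1 and 38 CPM in the male cultures, 45.4 CPM in PMC-303 and, in PMC-306, 37.4 CPM. PMC-303 was above every primary culture and PMC-306 within their range.

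Of the members with a charged membrane segment, Cd33 was lower in both lines by a similar amount. It measured 229.7, 159 and 223 CPM in the female cultures and 213, 217 and 160.4 CPM in the male cultures, against 79.5 CPM in PMC-303 and, in PMC-306, 84 CPM. The lines were at 39.6% and 41.9% of the primary mean of 200.5 ± 31.9 CPM (SD, n = 6), without overlap. Cd200r3, an activating relative of the CD200 receptor, measured 477, 344 and 277 CPM in the female cultures and 435, 575 and 339.7 CPM in the male cultures. PMC-303 with 266 CPM was below all of them, whereas PMC-306 with 291 CPM was above female culture 3. Together, Pirb, Lilrb4a and Cd33 made 3 of 10 members with both lines below every primary culture, where 20.1% of all genes with enough counts were so placed. On total counts and as TPM, Pirb was not among them, which left 2, and without female culture 3 Cd200r3 was, which made 4. None of the 10 had both lines above every primary culture, where 23.0% of all genes were. On total counts and as TPM, Milr1 did.

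Cd300lb showed a different pattern, in that its reads were present or nearly absent from culture to culture. It had 612 counts in female culture 1, 373 in male culture 1, 384 in male culture 2 and 1103 in PMC-306. It had 4 counts in female culture 2, 1 in female culture 3, 2 in male culture 3 and 8 in PMC-303. In CPM, these were 28.1, 19.1, 23.9 and 54.2 in the former and 0.176, 0.0527, 0.105 and 0.329 in the latter. Both sexes and both kinds of culture were found on each side, so no mean over the primary cultures describes this gene. The 0.329 CPM in PMC-303 were 2.3% of the mean of the male cultures, 14.3 CPM. That mean includes male culture 3 at 0.105 CPM. The 2.3% can therefore not be set directly against the 0.977 to 1.55% of the Y-linked transcripts. Any relation of the Y-linked share to the 0.329 CPM was not tested. Where Cd300lb was present, 99.3 to 99.7% of its reads were assigned to its coding transcripts. Cd300ld was not detected beyond 8.05 estimated counts, or 0.422 CPM, in any library, and no fold is given for it.

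Cd300a, Cd300lb, Cd300ld and Cd300lf lie in a cluster of related genes on chromosome 11, whose coding sequences shared 64.1 to 85.4% of aligned bases among these 4. The members at its ends, Cd300a and Cd300lf, were present in every library at 72.6 CPM or more. Between them, Cd300ld5 was also uneven, but in another arrangement than Cd300lb. It was at 18.4 CPM in female culture 2, 12.5 CPM in female culture 3 and 10.2 CPM in male culture 3, at 2.06 CPM in PMC-303 and, in PMC-306, 5.44 CPM. In female culture 1, male culture 1 and male culture 2 it was at 0.307, 0.134 and 0 CPM. These are the 3 primary cultures in which Cd300lb was present. Cd300ld3 was also lowest in these 3 among the primary cultures, at 26.4, 27.3 and 20.1 CPM. It was at 77.6, 35.9 and 51.9 CPM in female cultures 2 and 3 and male culture 3. In PMC-303 it was at 4.46 CPM and in PMC-306 at 18.1 CPM. Cd300c2, at 4.66 to 23.3 CPM in primary cultures, was not divided in this way. Cd300c and Cd300e did not exceed 0.147 CPM in any library.

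**Figure D3:**
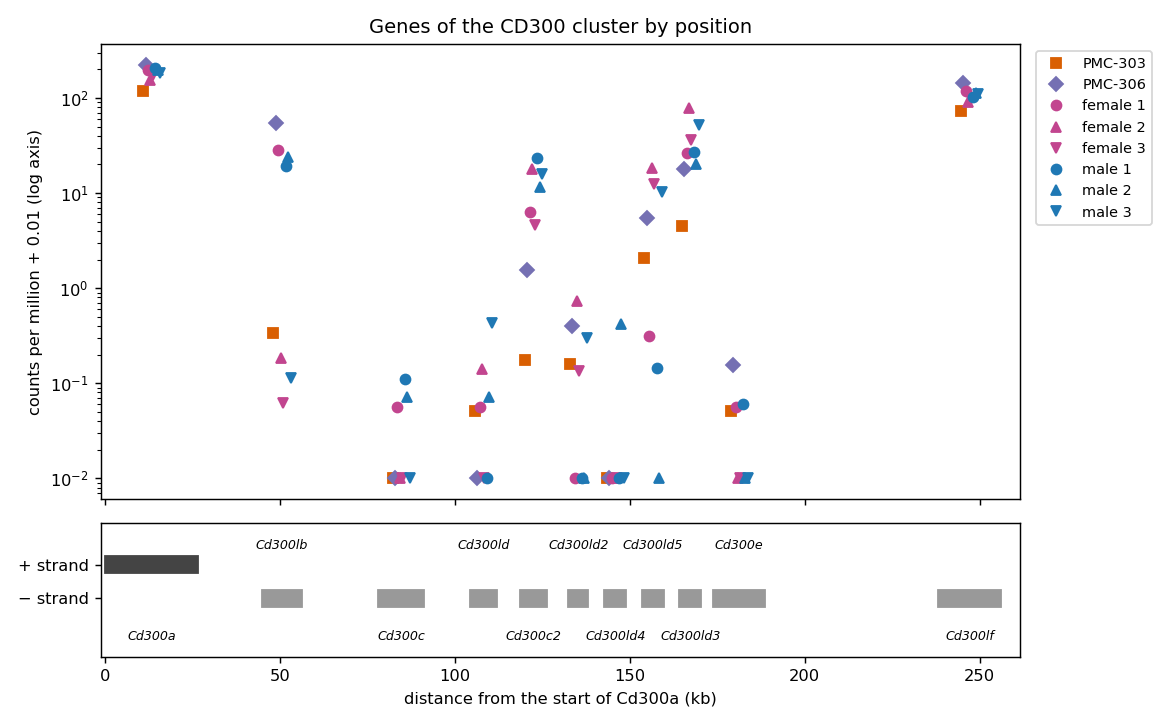
Level of the genes of the CD300 cluster as CPM + 0.01 on a log axis (top; each point is 1 library), at the distance of each gene from the start of Cd300a in kb, with the extent and strand of each gene below. Cd300lb is high in PMC-306, female culture 1 and male cultures 1 and 2, while Cd300ld5 is lowest in the same 3 primary cultures.

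The gene-level evenness of Pirb covered a difference between cultures in its transcripts. The transcript Pirb-203 took 80.2 to 82.9% of the reads of Pirb in PMC-303, PMC-306, female cultures 2 and 3 and male culture 3. It took 18.4%, 19.5% and 19.5% in female culture 1, male culture 1 and male culture 2. In these 3 cultures, Pirb-202 took 49.5%, 46.6% and 46.7%, whereas it took 2.37 to 6.34% in the others. The coding transcript Pirb-201, on the other hand, took 8.99 to 12.8% in all libraries. Pirb-202, Pirb-203, Pirb-204 and Pirb-205 are listed with a retained intron in M39.

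Of the 5 relatives of Pirb in its cluster on chromosome 7, Pira2, Pira12 and Lilra6 were uneven over the same cultures, while Pira1 with 58.3 to 96.5 CPM and Pira13 with 11 to 19.7 CPM over all libraries were not. Pira2 was at 103, 92.6 and 145 CPM in female culture 1, male culture 1 and male culture 2, and at 15.3 to 42.4 CPM in the other 5 libraries. Pira12, named Gm14548 in the deposited table, was at 4.88, 8.7 and 11.1 CPM in these 3 and at 113 to 178 CPM in the others. Lilra6 was at 13.7, 17 and 24.4 CPM in these 3 and at 59 to 244 CPM in the others. Summed over the 6 receptor genes of this cluster, the level was 513 to 877 CPM in primary cultures, 543 CPM in PMC-303 and, in PMC-306, 723 CPM, so that both lines were within the range of the primary cultures. The assignment of reads among these related genes is an estimate. Any effect of the mixed strain background of the mice on this assignment, here and in the CD300 cluster, was not tested. PMC-306, in which Cd300lb was present, resembled PMC-303 in the transcripts of Pirb.

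**Figure D4:**
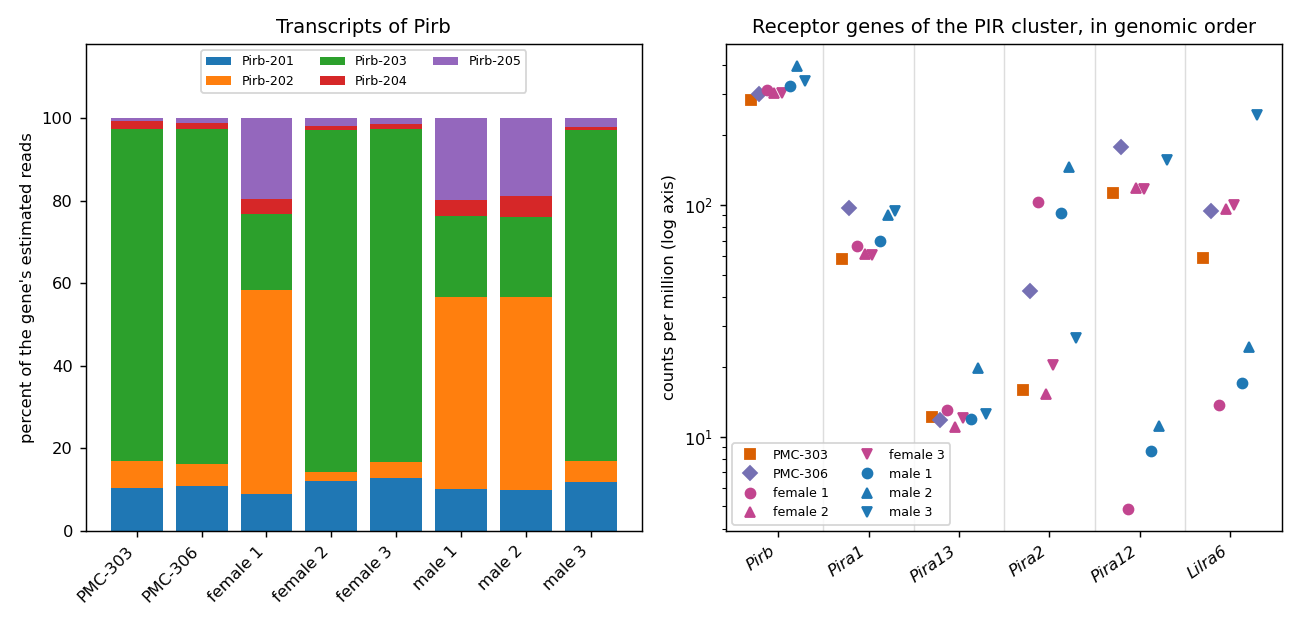
Left, share of the reads of Pirb assigned to each of its 5 transcripts in percent, 1 bar for each library; right, level in CPM on a log axis of the 6 receptor genes of the PIR cluster, 1 point for each library. Female culture 1 and male cultures 1 and 2 differ from the other 5 libraries in Pirb-202, Pirb-203, Pira2, Pira12 and Lilra6, but not in the total of Pirb.

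The sex of the donor is independent of how the members were chosen and was tested with limma on log2(CPM + 0.1). None of the 9 members with enough counts differed between the 3 female and 3 male cultures, at an adjusted p of 1 for each, where 0.0438% of the 13710 genes tested did. The lowest unadjusted p was that of Pirb in the limma fit with 0.0523, with a log2 difference of -0.21 (95% interval -0.42 to 0.00, female minus male). For Cd300a the difference was -0.17 (-0.43 to 0.09), for Cd300lf -0.10 (-0.36 to 0.17), for Fcgr2b -0.21 (-0.50 to 0.09) and for Cd33 0.05 (-0.38 to 0.48). For Lilrb4a it was -0.14 (-0.65 to 0.37), for Cd200r3 -0.30 (-0.90 to 0.30) and for Milr1 0.13 (-0.56 to 0.82). The interval of Cd300lb, -8.17 to 3.96 around -2.10 (female minus male), was far wider than these, as the gene was present in 1 of 3 female and 2 of 3 male cultures.

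To set the members beside the rest of their pathway, 102 other genes in 5 lists were examined, of which 69 had enough counts. Both lines together were tested against the primary cultures with limma. The lists, like the members, were drawn up with earlier results of these libraries known, so that their counts of calls are a description and not independent evidence. Of the 69, 7 were higher and 21 lower in the lines, where 18.3% and 15.5% of all 14529 genes tested were higher and lower. The median log2 difference was -0.27 over the 69 and -0.01 over all genes. Without PMC-303, 13 were lower, and without PMC-306, 3 were higher. In these fits the remaining line is assumed to vary like the primary cultures.

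The adaptors that the activating receptors need were expressed in all cultures. Tyrobp measured 568 ± 115 CPM (SD, n = 6) in primary cultures, 558 CPM in PMC-303 and, in PMC-306, 655 CPM, a log2 difference of 0.11 (limma adjusted p = 0.683). Fcer1g measured 171 ± 25, 224 and 207 CPM in the same order (0.34, adjusted p = 0.112), and Hcst 15.7 ± 2.63, 13.8 and 16.2 CPM (-0.05, adjusted p = 0.855). None of the 3 passed the test, except Fcer1g on total counts (0.45). On total counts, without PMC-303 or without female culture 2 the sign of Hcst was reversed.

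Of the 17 genes of activating signalling tested, 1 was higher and 4 were lower, with a median log2 difference of -0.24. The kinase Syk, which docks to phosphorylated adaptors, fell from 193 ± 8.57 CPM in primary cultures to 123 CPM in PMC-303 and, in PMC-306, 127 CPM (log2 difference -0.63, limma adjusted p = 0.000266), and passed under all 13 alternatives. The scaffold proteins Gab2 (-0.46), Lat2 (-0.40) and Lcp2 (-0.36) were lower by smaller amounts, whereas the phosphoinositide kinase subunit Pik3cd was higher (0.73). Lat2 and Lcp2 were not called without PMC-303 (-0.19 and -0.23), Gab2 lost its call without either line (-0.50 without PMC-303, -0.41 without PMC-306), and Pik3cd was not called without PMC-306 (0.26). Leaving out a primary culture also ended the call of Gab2 (male 3, -0.44), Lat2 (female 1, male 1 or male 2, -0.40 each) and Pik3cd (female 2, 0.68; female 3, 0.73; male 2, 0.72; male 3, 0.70).

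Of the 12 genes of inhibitory signalling, all of them tested, 3 were higher and 2 lower, with a median of 0.12. Ptpn6, the phosphatase SHP-1, measured 154 CPM in PMC-303, 201 CPM in PMC-306 and 120.4 ± 12.5 CPM in primary cultures, a log2 difference of 0.55 (limma adjusted p = 0.0149). Every primary culture was below both lines. Without PMC-306 the difference was 0.36 and not called. Inpp5d, the phosphatase SHIP-1, measured 640.3 CPM in PMC-303 and, in PMC-306, 920.0 CPM, beside 979 ± 68.2 CPM in primary cultures (-0.35, adjusted p = 0.0868), and was called without PMC-306 (-0.61). Ptpn11, or SHP-2, measured 109.7, 81.6 and 108 ± 6.11 CPM (-0.18, adjusted p = 0.236), and was called without PMC-303 (-0.40). The Ras regulator Rasa1 was higher (0.51), under all alternatives, and so was Pag1, a membrane adaptor for the kinase Csk (1.17), though not without PMC-306 (0.83). The ubiquitin ligase Cbl (-0.54) and the adaptor Dok3 (-0.28) were lower, Cbl not without PMC-306 (-0.37) and Dok3 not without PMC-303 (-0.21).

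Of the 16 family relatives tested, 1 was higher and 5 were lower, with a median of -0.11. The activating IgG receptor Fcgr3, the counterpart of Fcgr2b, measured 235 CPM in PMC-303, 231 CPM in PMC-306 and 149 ± 11.4 CPM in primary cultures. It was higher by 0.65 on the log2 scale (limma adjusted p = 0.000886) and was called under all 13 alternatives. Cd300c2, an activating gene of the CD300 cluster, was at 0.166 CPM in PMC-303, 1.53 CPM in PMC-306 and 4.66 to 23.3 CPM in primary cultures, a log2 difference of -4.13 (adjusted p = 0.00435), which was not called with voom, the weighted form of limma. Cd300ld3 of the same cluster (-1.97), Cd200r1 (-0.80) and Lilrb4b (-0.80) were lower as well. For Cd300ld3, PMC-306 with 18.1 CPM was close to the lowest primary culture with 20.1 CPM. Lilrb4b was not called without PMC-303 (-0.37). Cd200r1 lost its call without either line (-0.71 without PMC-303, -0.90 without PMC-306), and Cd300ld3 did so without PMC-303 (-0.98), female culture 3 (-1.97) or male culture 3 (-1.87).

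Of the 14 other immunoreceptors tested, none was higher and 6 were lower, with a median of -0.63. Lair1, an inhibitory receptor for collagen, fell from 122 ± 14 CPM in primary cultures to 24.6 CPM in PMC-303 and, in PMC-306, 47.8 CPM (log2 difference -1.82, limma adjusted p = 0.000528), under all alternatives. Ceacam1 (-2.53), Clec4n (-2.25) and Clec4e (-1.58) were lower at levels of 4.33 CPM or less in each library. Clec4n was called under all alternatives and Ceacam1 neither with voom nor without PMC-306 (-1.95). Clec4n had at most 17 counts in any library, and both lines were below the level of 3 counts. Clec4n and Ceacam1 passed the filter on low counts through the primary cultures alone, so the size of their differences is uncertain. Clec4e was not called without PMC-303 (-1.0), female culture 1 (-1.52) or 2 (-1.41), or male culture 2 (-1.60) or 3 (-1.49).

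Of the 10 ligands and partners tested, 2 were higher and 4 lower, with a median of -0.50. Itgb3 and Itgav, the subunits of the integrin that Lilrb4a binds, were both lower. Itgb3 measured 1.28 CPM in PMC-303, 3.54 CPM in PMC-306 and 19.6 ± 10.5 CPM in primary cultures (log2 difference -2.94, limma adjusted p = 0.00762, not called without PMC-303, where it was -2.24). Itgav measured 66.7, 73.8 and 113 ± 9.9 CPM (-0.69, adjusted p = 0.00125). B2m, the invariant chain of the MHC class I molecules that Pirb recognises, measured 243, 281 and 811 ± 354 CPM (-1.54, adjusted p = 0.0116, not called without PMC-303, where it was -1.43). The class I heavy chains H2-K1 (-0.29, adjusted p = 0.409) and H2-D1 (-0.43, adjusted p = 0.132) were not called. Rtn4, another ligand of Pirb, was lower (-0.67). Cd47 was higher (0.82), and so was Omg (1.92), at 0.638 CPM or less and not without PMC-306 (1.81). Omg had at most 13 counts in any library and passed the filter on low counts through the lines alone.

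**Figure D5:**
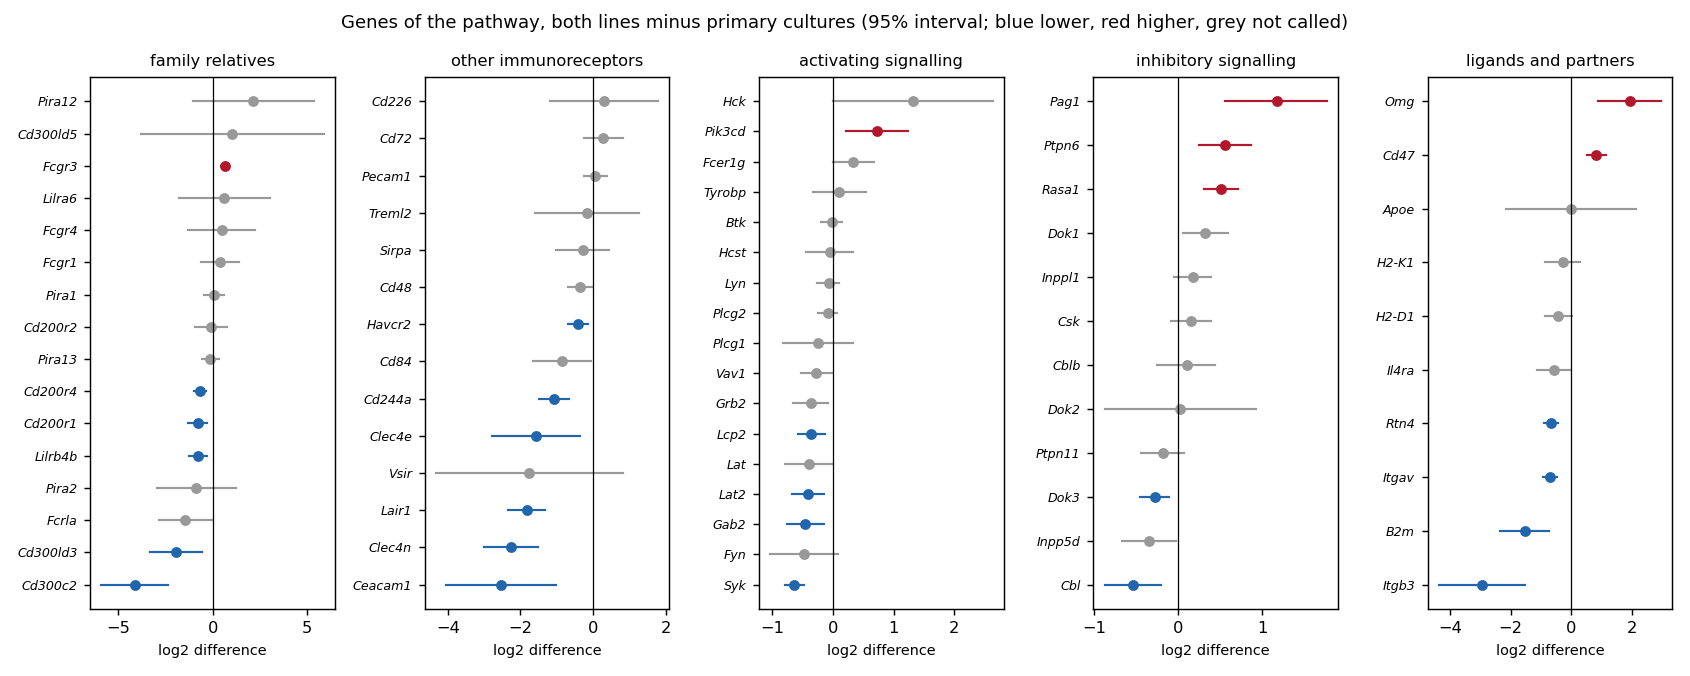
log2 difference of both lines minus the 6 primary cultures with its 95% interval (limma) for the 69 tested genes of the 5 lists; blue marks genes called lower, red higher and grey not called. Syk, Lair1 and Itgav lie to the left of 0 and Fcgr3, Rasa1 and Cd47 to the right, with intervals that exclude 0.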

How the data were processed

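Stranded libraries of total RNA from 8 untreated cultures were sequenced by the authors, with Trim Galore 0.6.7, STAR 2.7.9a and Salmon 1.5.2 and the builds GRCm39 and mm39 named in the submitters' processing notes. The deposited gene and transcript values are estimated read counts from Salmon and TPM, scaled by the authors for length and depth; a spreadsheet had rewritten 3.37% of the gene count cells. These cells were restored from the digits alone. The gene counts were then compared with the summed transcripts. Over all genes and libraries, counts of 0 included, 99.7% of values matched to 0.2 counts, and the rest to 1.53 counts. Because cells had been rewritten, and despite this match, the table was not taken as a plain count table. In place of a count model, the restored values were tested with limma 3.58.1 (R 4.3.3, trend, Benjamini-Hochberg, adjusted p threshold 0.05) on log2(CPM + 0.1) after TMM scaling. A gene was tested with about 10 counts in enough libraries for the smallest group and 15 in total. Fold changes are on the CPM + 0.1 scale, which understates those of low genes. The fold of a line is over the mean of the 6 primary cultures.

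The members and lists were chosen with earlier results of these data known. Named genes are the 10 members, 3 adaptors, 3 phosphatases and, for each list, the 4 largest rises and falls that were called. Groups came from the labels, and replicates are labelled biological. Of the listed symbols, 102 of 108 were found. Alternatives were total counts, median-of-ratios scaling, an offset of 1 CPM, no filter, voom, a replicate block, TPM, and each library left out. The limma script was tested on simulated data. Figures were drawn with matplotlib 3.10.9. Ensembl identifiers were matched to GENCODE M39, and sequences were taken from its transcripts. Floors cover counting error only.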

Additional observations from a re-analysis of the deposited data

Results flagged for a closer look

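Over the 40 genes named here, the highest or lowest of the 6 primary cultures lay apart from the rest in 2, as many as the 2 that chance gives at 1 in 20. These were Cd300ld, at 0.422 CPM in male culture 3, and Ptpn6, at 95.5 CPM in female culture 2. In 3 members the lines moved in opposite directions from every primary culture. The log2 fold was -0.63 in PMC-303 and 0.28 in PMC-306 for Cd300a, -0.54 and 0.44 for Cd300lf, and -0.72 and 0.33 for Fcgr2b. With 1 library of each line, this was not tested.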

How the results depend on the processing

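With 1 library of each line, the replicate spread of a line is unknown, and Cd300ld is limited by depth. Of 160 alternative member folds, 156 moved by less than the spread of the primary cultures. As TPM, the fold of Cd300lf (-0.32), Fcgr2b (-0.51) and Pirb (-0.03) in PMC-303 moved, and that of Pirb in PMC-306 was reversed (0.10). The count of members with both lines above every primary culture was 1 on total counts and as TPM, in place of 0. Leaving out 1 library at a time gave 13 to 22 pathway genes lower and 3 to 8 higher. Hcst was reversed on total counts (0.06), without PMC-303 (0.07) and without female culture 2 (0.03), and ranged from -0.16 to 0.07 with 1 library left out. Ptpn11 was reversed without PMC-306 (0.03) and ranged from -0.40 to 0.03. Neither was called where it was reversed. The cause was not tested. Of the 25 named genes that were called, 8 were called under all 13 alternatives, among them Clec4n at 17 counts or fewer in each library. On total counts Cbl, Clec4e, Dok3, Lat2 and Lcp2 were not called, without the filter Clec4e, Dok3 and Pik3cd, with voom Cd300c2, Cd300ld3, Ceacam1, Clec4e and Itgb3, and with an offset of 1 CPM Clec4e. No member was called between the sexes under any alternative. With the replicate block, 0 members and 5 genes in all were called between the sexes. The deviations of same-numbered female and male cultures correlated at 0.405, -0.216 and 0.284. With 3 cultures of each sex, these values cannot decide whether the numbers pair the cultures. Fits with edgeR and DESeq2 were not run, because the deposited table was not accepted as a count table.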
